A study of Mus musculus with 4 samples.

Results

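The 7 genes described here make up 3 cytokine axes of the wounded mouse skin, namely colony-stimulating factor 1 (Csf1) with its receptor Csf1r, granulocyte-macrophage colony-stimulating factor (Csf2, GM-CSF) with the receptor chains Csf2ra and Csf2rb, and RANKL (Tnfsf11) with its receptor RANK (Tnfrsf11a). They were chosen by name, 7 of the 21739 gene symbols in the matrices, and all 7 were listed in every library, as were 19001 symbols in all. The measurements were single-cell RNA sequencing of periwound skin of C57/BL6j mice aged 6 weeks, taken a week after wounding, with the transcripts of each cell counted as unique molecular identifiers (UMIs). By the sample titles, 2 libraries (Control 1 and Control 2) came from mice given phosphate-buffered saline and 2 (hucMSC-Exo 1 and hucMSC-Exo 2) from mice given exosomes, small vesicles shed by human umbilical cord mesenchymal stem cells. The study describes 1 mouse per library, so p-values between the groups measure the spread between 2 mice on each side.

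CSF1 keeps monocytes and macrophages alive through the receptor tyrosine kinase CSF1R, a receptor it shares with interleukin 34. GM-CSF binds a receptor made of a specific alpha chain, Csf2ra, and a beta chain, Csf2rb, that is also used by the receptors of interleukin 3 and interleukin 5, and it acts on granulocytes, monocytes and dendritic cells. RANKL, a membrane-bound member of the tumour necrosis factor family made by activated T cells among other cells, signals through RANK on myeloid precursors and dendritic cells, and CSF1 and RANKL together are the classical requirement for osteoclast formation.

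Some of the labels disagree. The file names join Control 1 with hucMSC-Exo 1 and Control 2 with hucMSC-Exo 2, which splits the libraries differently from the titles, and the tissue field names parts of the gut although the other labels say skin. The gut genes Alpi, Car1, Cdx2 and Fabp2 had no UMI in any library, Vil1 and Muc2 had at most 5 and Lgr5, which hair follicles also express, had 1 to 18. Epcam, which is shared by many epithelia and Langerhans cells, had 211 to 337 UMIs per library, whereas the keratinocyte gene Krt14 had 3332 to 4976 UMIs per library. By title the kept cells held 403 neutrophils in Control and 635 in hucMSC-Exo, and by file-name letter 149 in Control 1 with hucMSC-Exo 1 and 889 in Control 2 with hucMSC-Exo 2. Macrophages, osteoclast-like macrophages and monocytes together were 772 and 733 by title and 518 and 987 by letter. The cell numbers that the study itself gives for its groups are nearer to the split by file name, in which Control 1 and hucMSC-Exo 1 would be the controls. Every direction between groups below rests on the titles and is uncertain to that extent, and values are given per library.

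The matrices held 7178 cells, and 6443 of them (952 to 2074 per library) passed the limits of at least 200 and at most 3000 detected genes and at most 10% mitochondrial UMIs. The study gives larger cell numbers. The kept cells held 4779405 to 11243740 UMIs per library, with a median of 3747 and 3752 UMIs per cell in the hucMSC-Exo libraries and of 4262.5 and 4392.5 in the Control libraries, so that equal expression gives somewhat fewer positive cells in the hucMSC-Exo libraries. Libraries shared 0 to 2 cell barcodes. The cells were grouped into 17 classes and 186 unnamed cells by clustering that left out the 7 members and their pathway genes, and each class was named "-like" from marker lists, the suffix being left out below except where it belongs to the name. The osteoclast-like macrophages (768 cells) are named from 6 of 8 markers found in at least 10% of their cells and were led by Mmp19, Pdpn, Arg1 and Ctsl, so that the name describes markers and not osteoclasts. The keratinocyte markers summed to 228 to 2417 CPM in the immune classes, and their part in any result was not tested.

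A level below is a gene's UMIs over all UMIs of the cells of 1 class in 1 library, in CPM (counts per 1000000), and a share is the percentage of those cells with at least 1 UMI. Where 4 values follow each other, the Control libraries come first, then the hucMSC-Exo libraries, each by its number, and classes with fewer than 10 cells in a library were left out there. The 95% intervals are exact binomial intervals and cover counting error only. Each class was also set against the mean of the other classes in an edgeR quasi-likelihood fit to sums per library and class, over 8260 genes and 16 classes. In that fit 39 of the 112 pairs of a member and a class were called higher at an adjusted p of at most 0.0415 (34.8%), against 21.5% of the 132160 pairs of all genes and classes, and 7 were called lower (6.25%), against 6.25% of all pairs. Per class the background of higher calls ran from 3.03% in mast cells to 34.7% in osteoclast-like macrophages. The median log2 difference over the member pairs was -0.47, beside 0.14 over all pairs. In this edgeR fit a class without any UMI of a gene pulls the fitted mean of the other classes far down, which can make higher calls easier. All members but Csf2rb had such a class, and how much this adds to the 34.8% was not tested. The classes are clusters of these same cells, so a call describes a difference relative to the spread between libraries and not an independent sample of cells.

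The stretch of 250 bases before the RefSeq start site (GRCm38.p6) is shown for the 2 ligands with 1 leading class and for the receptor chain whose levels ran closest to those of the transcription factor Spi1 (PU.1). Capitals mark the motif matches found, and every stretch is read 5′ to 3′ on the minus strand, which is the coding strand of these genes. They lie at chr3:107760470-107760719 (Csf1), chr14:78308044-78308293 (Tnfsf11) and chr19:61228419-61228668 (Csf2ra).
Csf1: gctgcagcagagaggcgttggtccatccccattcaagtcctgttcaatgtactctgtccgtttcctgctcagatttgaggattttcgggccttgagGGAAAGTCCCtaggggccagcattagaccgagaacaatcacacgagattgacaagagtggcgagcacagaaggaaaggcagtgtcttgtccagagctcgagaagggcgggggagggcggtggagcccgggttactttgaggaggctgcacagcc
Tnfsf11: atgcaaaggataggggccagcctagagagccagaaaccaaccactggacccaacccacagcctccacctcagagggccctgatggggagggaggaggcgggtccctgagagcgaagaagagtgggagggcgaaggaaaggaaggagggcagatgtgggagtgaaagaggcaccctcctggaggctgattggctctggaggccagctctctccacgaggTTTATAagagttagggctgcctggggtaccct
Csf2ra: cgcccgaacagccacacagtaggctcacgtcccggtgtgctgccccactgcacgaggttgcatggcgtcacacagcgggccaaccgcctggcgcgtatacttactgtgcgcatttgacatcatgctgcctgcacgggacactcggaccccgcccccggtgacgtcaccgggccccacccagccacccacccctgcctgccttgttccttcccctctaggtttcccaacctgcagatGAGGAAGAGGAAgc
In Csf1 the capitals are an NF-kB site, in reverse complement, 154 to 145 bases before the start, a run that 0.140% of the 32851 RefSeq mouse promoters of this length hold on either strand. In Tnfsf11 they are a TATA box, TATAAA, on the opposite strand at 32 to 27 bases before the start (12.4% of promoters), and in Csf2ra they are 2 adjoining PU.1 cores, GAGGAA, 14 to 3 bases before it (23.3% of promoters hold at least 1 such core). The NFAT core TGGAAA, the GATA core GATAAG and the AP-1 site TGACTCA were also searched on both strands and were not in these 3 windows. The mm10 annotation starts Csf2ra inside its window. These matches describe letters and not bound sites.

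Among these mostly immune cells, Csf1 was found mainly in basophils and neutrophils. Csf1 lies at chr3:107741048-107760469 on the minus strand (mm10). In basophils, rare granulocytes of allergic and type 2 responses, its level was 1426 CPM in Control 2, 764 CPM in hucMSC-Exo 1 and 1400 CPM in hucMSC-Exo 2, a mean of 1197 ± 375 CPM (SD, n = 3). The 4 libraries held 1, 59, 23 and 18 basophils, and the 1 of Control 1 had 23 of the 65 Csf1 UMIs of its library. The basophil levels did not overlap those of any other class with at least 10 cells, and the share of Csf1-positive basophils was 83.1% (95% interval 71.0 to 91.6), 52.2% (30.6 to 73.2) and 94.4% (72.7 to 99.9) in the same libraries. Basophils were 2.84% of the kept cells of Control 2 but held 59.8% of its Csf1 UMIs, and they held 49.4% in hucMSC-Exo 1 and 13.3% in hucMSC-Exo 2.

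In neutrophils the level of Csf1 was 189, 156, 113 and 354 CPM, with 35.7%, 21.3%, 12.9% and 39.1% of cells positive. hucMSC-Exo 2 was the highest and hucMSC-Exo 1 the lowest, so that the Control libraries lay between them. Neutrophils held 75.5% of the Csf1 UMIs of hucMSC-Exo 2, in which they were 27.1% of cells, and 23.5% to 33.8% in the other libraries. As a background, 1 of 284 conventional dendritic cells had a Csf1 UMI, at a median of 10083 UMIs per cell beside 2096 in neutrophils. The 48 neutrophils with UMIs of both Csf1 and Csf1r were 15.1% of the Csf1-positive ones, where the product of the shares of both genes gives 37.7.

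Csf1 was called higher in 5 of the 16 classes, which besides basophils and neutrophils were mast cells, fibroblasts and CD4 T cells. Mast cells had 427 CPM in Control 2 and 0 in hucMSC-Exo 2, and without Control 2 the mast cell difference turned to -5.24 on the log2 scale. Fibroblasts, the textbook stromal source of CSF1, had 79.5, 25.4 and 237 CPM in the 3 libraries with at least 10 of them, from 51 cells in all. CD4 T cells had 47.4, 22.2, 12.7 and 25.3 CPM, and their call was lost without Control 1 (log2 difference of 1.24). It was also lost with no upper limit on detected genes (edgeR adjusted p = 0.152) and at Leiden resolution 0.6 (edgeR adjusted p = 0.0587). Monocytes and plasmacytoid dendritic cells had no Csf1 UMI in any library.

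**Figure D1:**
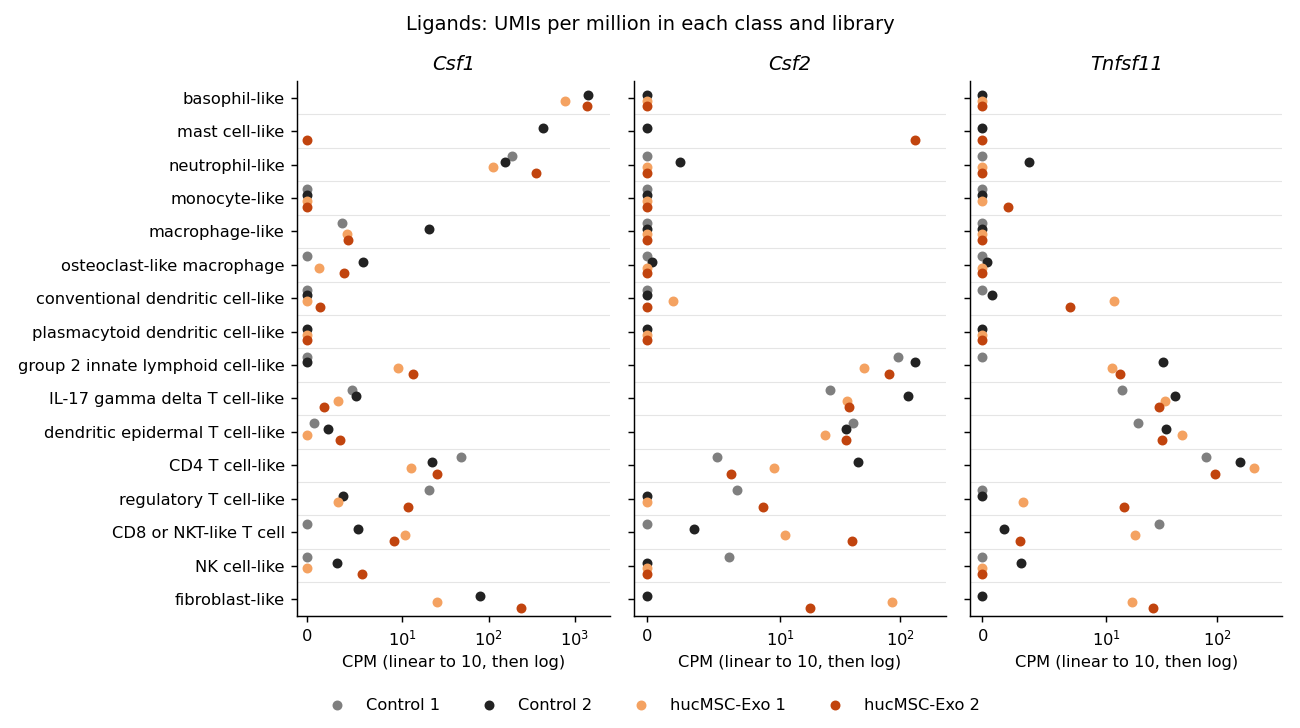
CPM of the 3 ligands in each class on an axis that is linear to 10 and logarithmic above, 1 point per library with at least 10 cells of the class, coloured by library. Mature dendritic cells and unnamed cells are not drawn. Csf1 is highest in basophils (764 to 1426 CPM), Csf2 spreads over innate lymphoid and T cell classes, and Tnfsf11 is highest in CD4 T cells (79.0 to 213 CPM).

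Csf2 was found mainly in lymphoid cells, whose 7 classes held 489 of its 510 UMIs. It lies at chr11:54247271-54249667 on the minus strand and was found in 230 kept cells. Its level in group 2 innate lymphoid cells (ILC2), tissue lymphocytes that make type 2 cytokines, was 94.8, 131, 49.3 and 80.0 CPM. In IL-17 γδ T cells it was 25.7, 116, 35.7 and 37.4 CPM, and in dendritic epidermal T cells (DETC), the resident γδ T cells of mouse epidermis, 40.2, 35.5, 23.7 and 35.1 CPM. The ranges of these 3 classes overlapped. Outside the lymphoid classes, mast cells had 0 CPM in Control 2 and 133 CPM in hucMSC-Exo 2, from 2 UMIs in 12 cells, and fibroblasts had 0, 84.8 and 17.6 CPM, from 12 UMIs. Csf2 was called higher in 6 classes, these 3 together with fibroblasts, CD4 T cells and CD8 or NKT-like T cells, and the calls of the last 3 were lost with DESeq2 (adjusted p of 0.0525, 0.0702 and 0.193).

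The most Csf2 UMIs in 1 cell were 34, in an IL-17 γδ T cell of Control 2. That class held 113 of the library's 202 UMIs (55.9%), the 34 of this cell included. In Control 1 the DETC held 68.4% of 79 UMIs, at 35.4% of its cells. Thus the class that gave most Csf2 UMIs differed between the 2 Control libraries, while the level over all kept cells was 16.5, 18.0, 15.5 and 14.2 CPM. Csf2 had no UMI in 404 macrophages, which allows a share of cells with a UMI of up to 0.743% (3 counts of the total), nor in basophils, monocytes or plasmacytoid dendritic cells.

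Tnfsf11 was highest in CD4 T cells. It lies at chr14:78277445-78308043 on the minus strand, with 557 UMIs in 300 kept cells. In CD4 T cells its level was 79.0, 160, 213 and 94.7 CPM and 19.5% (95% interval 8.82 to 34.9), 34.2% (26.7 to 42.4), 36.0% (26.1 to 46.8) and 19.0% (11.8 to 28.1) of cells were positive. This range did not overlap that of the next class, and the CD4 T cells, 4.31% to 7.18% of cells, held 27.3% to 57.8% of the Tnfsf11 UMIs of their library. With each cell thinned to 1000 UMIs, 5.84%, 13.2%, 15.7% and 7.46% of them were positive.

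DETC had 19.4, 34.4, 48.5 and 31.6 CPM of Tnfsf11 and IL-17 γδ T cells 14.0, 41.9, 33.6 and 29.8 CPM. These 2 classes overlapped, and with CD4 T cells, ILC2 and CD8 or NKT-like T cells they were the 5 classes called higher. The ILC2 and the CD8 or NKT-like T cell calls were lost under DESeq2 (adjusted p of 0.0831 and 0.0513). Regulatory T cells, another CD4 lineage, had 0, 0, 3.27 and 14.5 CPM. No Tnfsf11 UMI was found in 404 macrophages, in basophils, mast cells or plasmacytoid dendritic cells.

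Most cells with a ligand had only 1 of the 3. Of the 230 cells with a Csf2 UMI, 37 also had Tnfsf11, where the product of the shares of both genes gives 10.7 cells, and 5 had Csf1, where it gives 18.1. In CD4 T cells 9 of 15 Csf2-positive cells were also Tnfsf11-positive (4.35 from the product), compared with 12 of 72 in IL-17 γδ T cells (6.05) and 13 of 102 in DETC (7.96). These counts pool libraries and describe cells that share a library and depth.

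**Figure D2:**
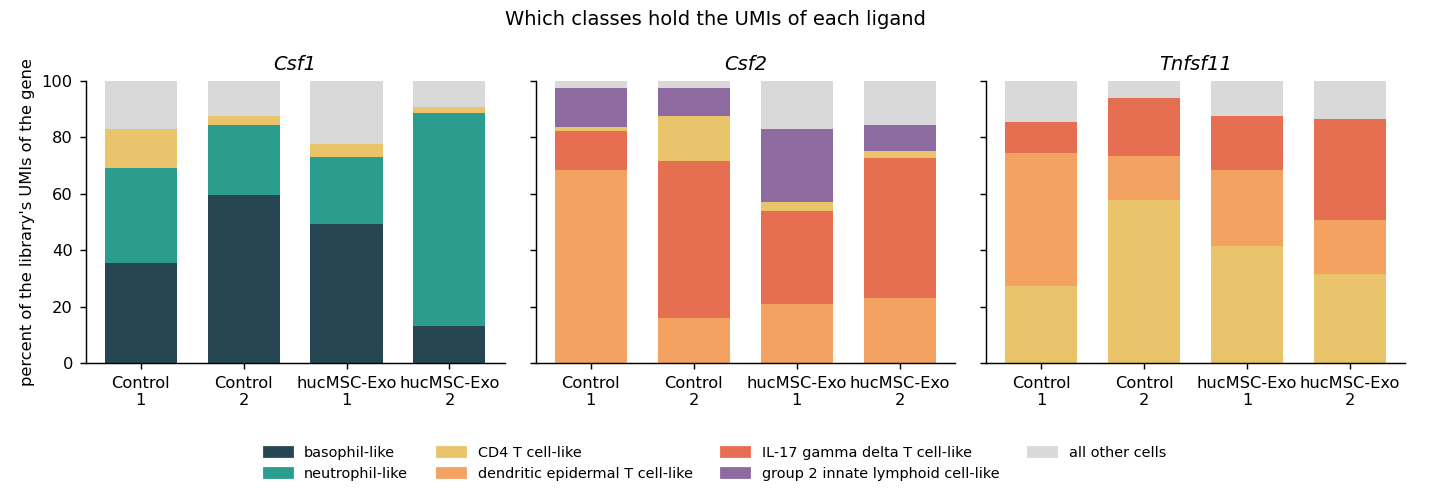
Percentage of each library's UMIs of Csf1, Csf2 and Tnfsf11 held by the named classes and, in grey, by all other cells, 1 stacked bar per library. Basophils held 59.8% of Csf1 in Control 2 and 13.3% in hucMSC-Exo 2, where neutrophils held 75.5%, and DETC held 68.4% of Csf2 in Control 1 while IL-17 γδ T cells held 55.9% in Control 2.

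Csf1r was carried by the mononuclear phagocytes. Csf1r is on chromosome 18, and 1587 kept cells had its transcript. Its level was 466, 553, 550 and 620 CPM in macrophages, with 85.8% to 87.8% of cells positive, and 555, 441, 477 and 479 CPM in osteoclast-like macrophages. These ranges overlapped, and both lay above the monocytes at 305, 260, 270 and 326 CPM. Conventional dendritic cells had 75.5, 165, 151 and 150 CPM and neutrophils 103, 67.6, 50.9 and 59.8 CPM.

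These were the 5 classes in which Csf1r was called higher. ILC2 and mast cells had no Csf1r UMI, and 16 of 2814 T cells (0.569%) had one. Over all kept cells the level was 163, 194, 169 and 159 CPM.

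Csf2ra was found in the myeloid classes other than mast cells and was led by neutrophils. It lies at chr19:61223957-61228429 on the minus strand. Its level was 300, 277, 238 and 213 CPM in neutrophils, with 46.4% (95% interval 33.0 to 60.3), 42.9% (37.7 to 48.3), 34.4% (24.9 to 45.0) and 35.6% (31.6 to 39.8) of cells positive. Monocytes had 194, 182, 228 and 197 CPM, overlapping neutrophils and lying above conventional dendritic cells at 147, 137, 139 and 138 CPM. Osteoclast-like macrophages had 122, 128, 183 and 115 CPM and macrophages 153, 105, 122 and 91.2 CPM.

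Csf2ra was called higher in these 5 classes and in basophils, where 18.8, 72.8 and 36.9 CPM came from 9 positive cells. The basophil call was lost without each of the 4 libraries in turn (edgeR adjusted p of 0.0699 to 0.245). NK cells and mast cells had no Csf2ra UMI, and 1.71% of T cells had one.

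Csf2rb was high in basophils and mast cells, in which few or no Csf2ra UMIs were found. It was also high in conventional dendritic cells, osteoclast-like macrophages, monocytes and neutrophils, which were called higher for Csf2ra too. The gene lies at chr15:78325752-78353847 on the plus strand, beside its close paralog Csf2rb2 (chr15:78282507-78305721, minus strand), and reads of the 2 genes may be split between them, so that both levels are uncertain. Basophils had 1172, 2037 and 1640 CPM of Csf2rb in the 3 libraries with enough of them, and mast cells 1235 CPM in Control 2 and 1666 CPM in hucMSC-Exo 2. Conventional dendritic cells had 520, 1647, 1307 and 1582 CPM, osteoclast-like macrophages 581, 1036, 928 and 938 CPM, monocytes 387, 890, 673 and 715 CPM and neutrophils 309, 613, 413 and 777 CPM. Control 1 was the lowest library in each of these 4 classes, and over all kept cells it had 137 CPM beside 405 to 606 CPM in the other libraries.

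Macrophages stood below these 6 classes for Csf2rb at 175, 231, 105 and 125 CPM, with 55.2%, 49.1%, 39.0% and 36.8% of cells positive. Their range did not overlap that of neutrophils but did overlap that of plasmacytoid dendritic cells, which had 127, 110 and 104 CPM in the 3 libraries with at least 10 of them. Csf2rb was called higher in 7 classes, basophils, conventional dendritic cells, osteoclast-like macrophages, monocytes, neutrophils, mast cells and macrophages, and lower in 7, all of them T cell, NK cell or ILC2 classes. It was the only member with UMIs in all 16 classes. A class without any UMI pulls the fitted mean of the other classes far down. None of the other members was called lower in this edgeR fit, while DESeq2 gave more lower calls with the same contrast. The part of classes without any UMI in this was not tested. A single ILC2 cell, of hucMSC-Exo 1, held the Csf2rb UMIs of its class, and without hucMSC-Exo 1 or without called doublets the 7 lower calls became 1.

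Of the 1521 cells with Csf2ra, 1165 also had Csf2rb, where the product of the shares of both genes gives 541. In osteoclast-like macrophages 408 of 428 Csf2ra-positive cells were positive for both chains, in conventional dendritic cells 175 of 182, in monocytes 180 of 207, in neutrophils 262 of 400 and in macrophages 98 of 193. All 9 Csf2ra-positive basophils had Csf2rb, but they were 9 of 86 basophils with Csf2rb. Within each class the product gives 382, 166, 167, 252 and 90.8 cells in the order named, and 7.66 in basophils.

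Tnfrsf11a was sparse and was led by mature dendritic cells and macrophage classes. It lies at chr1:105780718-105847981 on the plus strand and had 603 UMIs in 439 kept cells. In mature dendritic cells it was 87.0 CPM in Control 2, the one library with at least 10 of them, and 15 of the 29 cells of all libraries had a UMI. In osteoclast-like macrophages its level was 28.9, 65.7, 67.0 and 45.9 CPM, and 25.0% (95% interval 11.5 to 43.4), 32.3% (27.6 to 37.4), 33.5% (27.2 to 40.3) and 20.1% (14.2 to 27.2) of cells were positive. Macrophages had 31.4, 51.8, 16.8 and 37.0 CPM and monocytes 38.7, 25.0, 18.0 and 15.6 CPM.

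The ranges of osteoclast-like macrophages, macrophages and monocytes overlapped, and the 1 value of mature dendritic cells lay above them. ILC2 had 17.2, 26.2, 30.3 and 19.99 CPM, from 8.70% to 10.3% positive cells, and conventional dendritic cells 12.6, 7.67, 9.80 and 24.0 CPM. Tnfrsf11a was called higher in osteoclast-like macrophages, macrophages, monocytes, ILC2 and conventional dendritic cells, 5 of 16 classes, and mature dendritic cells had too few cells for the fit. As a background, 8 of 2814 T cells (0.284%) had a UMI, and CD4 T cells, the class with most Tnfsf11, had none in 379.

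Of the 439 Tnfrsf11a-positive cells 351 also had Csf1r, where the product of the shares of both genes gives 108. Among them were 217 of 229 osteoclast-like macrophages (195 from the product within the class) and 80 of 93 macrophages (80.6). The median depth of these classes was 7677 and 7130.5 UMIs per cell.

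**Figure D3:**
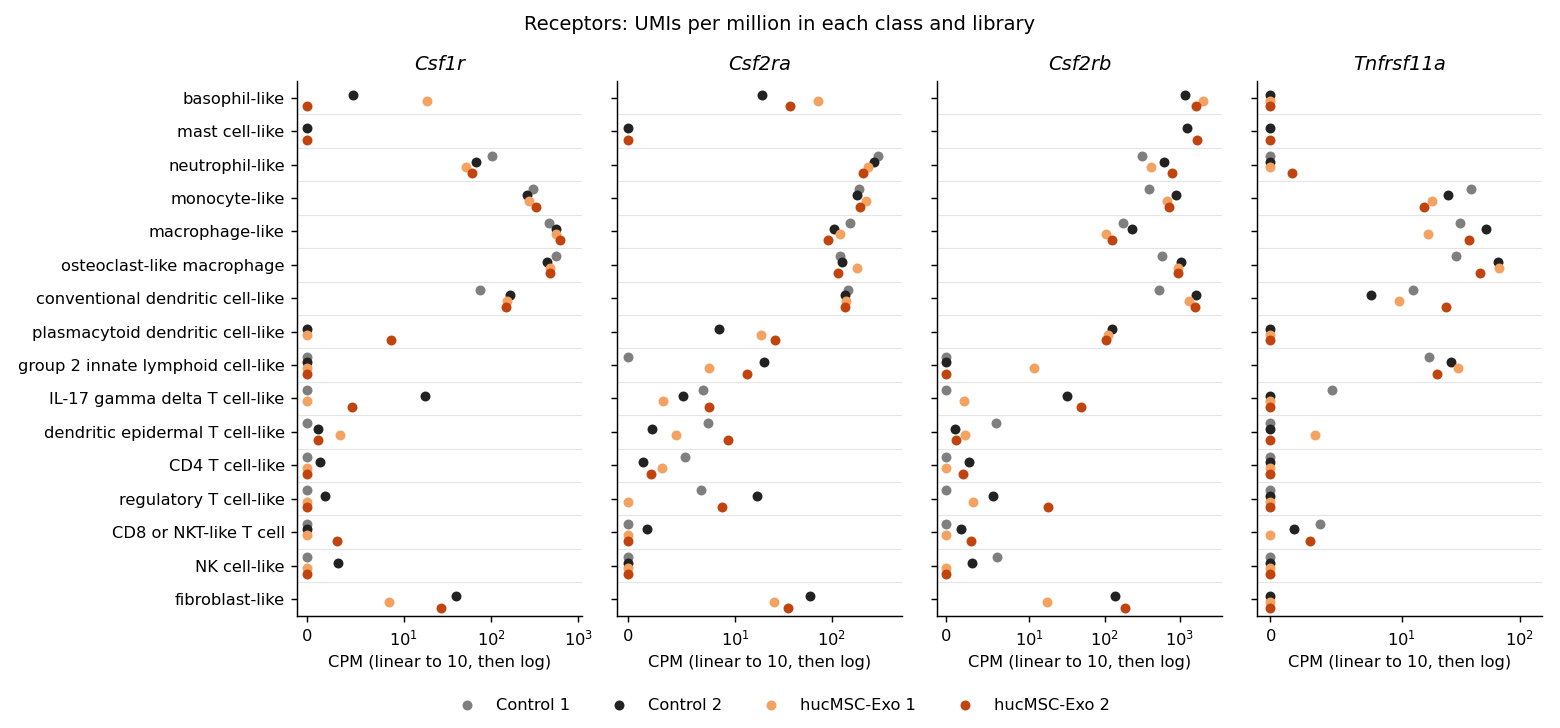
CPM of the 4 receptor genes in each class on an axis that is linear to 10 and logarithmic above, 1 point per library with at least 10 cells of the class, coloured by library. Mature dendritic cells and unnamed cells are not drawn. Csf1r is highest in both macrophage classes and Csf2ra in neutrophils (213 to 300 CPM), and Csf2rb is high in basophils, mast cells and conventional dendritic cells.

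The upper limit on detected genes removed many cells with Tnfrsf11a. Of its 1260 UMIs in all deposited cells, 644 were in the 529 cells with over 3000 detected genes and otherwise acceptable. When these cells were kept and clustered with the others, again without the members, a cluster of 212 cells led by Ctsk, the bone-resorbing protease cathepsin K, came apart, with 11, 134, 59 and 8 cells. Its Tnfrsf11a level was 120, 115, 103 and 148 CPM, above that of the other osteoclast-like macrophages at 33.8, 68.4, 64.1 and 49.0 CPM in every library.

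In this cluster 79.7% of cells had Tnfrsf11a at a median of 21412 UMIs per cell, against 31.3% of the other 709, and after thinning to 1000 UMIs per cell 10.3% against 5.66%. Csf1r was 484 CPM in the Ctsk-led cells and 441 CPM in the others over all libraries, Csf2ra 88.8 and 146 CPM, and Csf2rb 620 and 942 CPM. The part of doublets in it was not tested. The cluster was made from these cells, so these values carry no test.

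**Figure D4:**
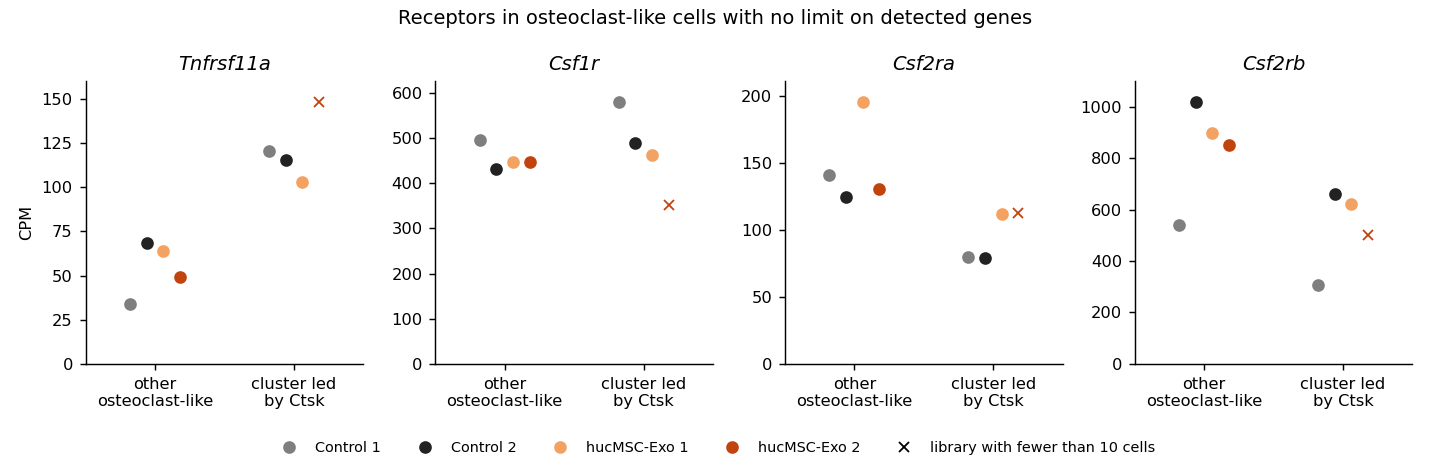
CPM of the 4 receptor genes per library in the cluster led by Ctsk (212 cells) and in the other osteoclast-like macrophages (709 cells), with cells over 3000 detected genes kept and a cross for a library with fewer than 10 cells. Tnfrsf11a is higher in the Ctsk-led cells in all 4 libraries (103 to 148 CPM against 33.8 to 68.4 CPM).

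The comparison the study was built on is hucMSC-Exo against Control. No member was called different between them, in tests that could find only large changes. In simulated counts, where every gene had the same spread, edgeR recovered few changes of 1 on the log2 scale. These were 7% in all kept cells, 12% in neutrophils and 9.5% in osteoclast-like macrophages. Of changes of 2 it recovered 99.5%, 95% and 97%. The absence of a call thus says little about smaller changes. In an edgeR quasi-likelihood test per class, 0 of the 26 member and class pairs with enough UMIs were called, and 2 of the 57520 pairs of all genes and classes were (0.00348%). DESeq2 called 9 of all pairs and none of a member. Over all kept cells 0 of 12117 genes were called (0.0%) by edgeR and 0 by DESeq2, and 182 had an unadjusted p under 0.05. Among the member pairs 1 had an unadjusted p under 0.05, and adjusted p-values were at least 0.657.

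That pair was Csf2rb in macrophages, at 175 and 231 CPM in the Control libraries and 105 and 125 CPM in the hucMSC-Exo libraries. Both hucMSC-Exo values were below both Control values, with a log2 fold change of -0.80 ± 0.27 (SE; edgeR adjusted p = 0.657). Of the 26 pairs, 6 had both hucMSC-Exo levels below both Control levels (23.1%), beside 17% of all gene and class pairs tested, 1 had both above (3.85%), beside 12.3%, and 19 overlapped.

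For Csf2 the group difference went the same way in ILC2 and DETC. The log2 fold change was -0.95 ± 0.45 in ILC2 (adjusted p = 0.997) and -0.32 ± 0.30 in DETC (adjusted p = 0.993), both by edgeR. In IL-17 γδ T cells 1 cell held 34 of the 113 Csf2 UMIs of Control 2. The log2 fold change in this class was -1.04 ± 0.53, with Control 1 (25.7 CPM) below both hucMSC-Exo libraries. This value rested on 1 library, since it was -1.63 without Control 1, where edgeR called it (adjusted p = 0.0381), and 0.59 without Control 2.

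Shares of Csf2-positive cells were lower in both hucMSC-Exo libraries in 4 of 12 classes and higher in both in 1. Of all gene and class pairs with enough UMIs for the group test, 28.7% had lower shares in both and 6.12% higher ones. Csf2 had enough UMIs for that test in 3 classes, ILC2, IL-17 γδ T cells and DETC, so its 12 classes and this background are unlike sets. The share was 13.04% and 15.6% in the Control libraries and 7.14% and 6.45% in the hucMSC-Exo libraries for ILC2, 9.76% and 13.2% against 6.94% and 7.86% for IL-17 γδ T cells, and 11.3% and 10.6% against 7.12% and 9.57% for DETC. Those of ILC2 came from 3, 5, 9 and 2 positive cells. Their 95% intervals overlapped, at 2.78 to 33.6, 5.28 to 32.8, 3.32 to 13.1 and 0.791 to 21.4. CD4 T cells had 2.44% and 6.71% against 2.25% and 2.00%, while their levels overlapped (5.27 and 44.4 CPM against 9.54 and 6.32 CPM). At 2 libraries against 2 the smallest two-sided p an exact permutation test can give is 0.333, which says only that the groups did not overlap. Of the 26 member pairs, 8 had lower shares in both hucMSC-Exo libraries (30.8%), a fraction near that of all pairs, and 3 had higher ones (11.5%). After thinning to 1000 UMIs per cell the ILC2 shares were 5.76% and 7.80% against 2.98% and 3.50%. CD8 or NKT-like T cells went the other way, with 0% and 1.89% against 2.90% and 4.41%.

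Csf1 levels overlapped between the groups in neutrophils, the 1 class in which Csf1 was tested, and Tnfsf11 levels in each of its 3 classes tested. Basophils, where Csf1 was highest, were not tested between the groups, since Control 1 held 1 of them. Csf1 in neutrophils had a log2 fold change of 0.65 ± 0.45, which ran from -0.28 to 1.17 when each library was left out. Over all kept cells Csf1 was 13.6, 45.1, 13.2 and 63.2 CPM, so that the 2 libraries joined by a file-name letter stood together, and without the basophils it was 8.80, 18.5, 6.71 and 55.1 CPM. Tnfsf11 had a log2 fold change of 0.23 ± 0.42 in CD4 T cells and 0.67 ± 0.35 in DETC (edgeR adjusted p = 0.951).

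Among the receptors, Csf1r differed by 0.19 ± 0.23 on the log2 scale in macrophages and by less than its SE of 0.30 in osteoclast-like macrophages. Csf2ra differed by -0.21 ± 0.37 in neutrophils and 0.29 ± 0.32 in monocytes. Tnfrsf11a differed by 0.18 ± 0.38 in osteoclast-like macrophages and -0.44 ± 0.41 in macrophages. In monocytes it differed by -0.76 ± 0.56, with both hucMSC-Exo levels below both Control levels. In each case the adjusted p by edgeR was at least 0.971.

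**Figure D5:**
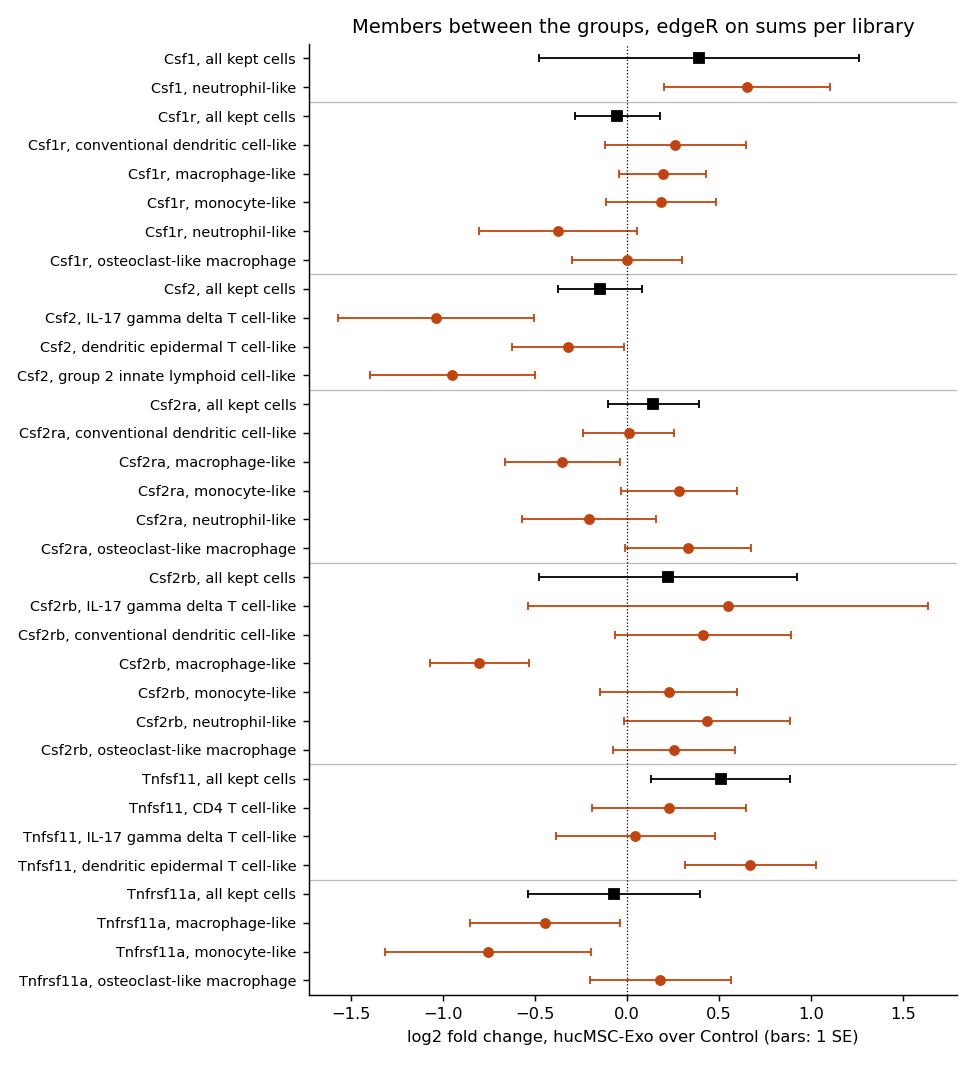
Log2 fold change of hucMSC-Exo over Control by edgeR for each member in all kept cells (squares) and in each class tested (circles), with bars of 1 SE and a dotted line at 0. Values lie on both sides of 0, Csf2rb in macrophages is at -0.80 ± 0.27 and Csf2 in ILC2 at -0.95 ± 0.45, and none of them was called.

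Of 42 other genes of these pathways, 28 passed the filter on low counts for the class fit once 8 marker genes were set aside. Of the other ligands and receptors, 3 of 9 were tested, and 14 of 48 gene and class pairs were called higher (29.2%) beside the 21.5% of all genes. Csf2rb2 was highest in basophils, with 1026, 1310 and 645 CPM. Il3ra, the interleukin 3 receptor chain that pairs with Csf2rb, had 18.8, 90.9 and 73.7 CPM in basophils. Interleukin 34, the other CSF1R ligand, had 39 UMIs in all kept cells and osteoprotegerin (Tnfrsf11b), the soluble inhibitor of RANKL, had 8, and neither was tested. The kept cells were mostly immune, with 51 fibroblasts and no keratinocyte or endothelial class, so these counts say little about other skin cells.

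Of the 8 genes of CSF1R signalling, 46 of 128 pairs were called higher (35.9%) and 19 lower. Mitf, a transcription factor of osteoclasts and melanocytes, was highest in macrophages (61.9, 41.7, 12.6 and 51.3 CPM), and Spi1, which encodes PU.1, in neutrophils (394, 383, 390 and 384 CPM). Of the 9 genes of GM-CSF receptor signalling 46 of 144 pairs were higher (31.9%) and 24 lower, with Stat5a highest in regulatory T cells (108, 206, 160 and 332 CPM) and Irf4 in IL-17 γδ T cells (67.8, 120, 93.1 and 110 CPM). Of the RANK genes 8 of 16 were tested, with 32 of 128 pairs higher (25.0%) and 11 lower. Nfatc1, the osteoclast regulator, was highest in NK cells (68.0, 227, 144 and 237 CPM) and was also called higher in osteoclast-like macrophages. Between the groups none of the 254 pairs of these lists was called by edgeR, and 19 had an unadjusted p under 0.05 (7.48%), beside 1646 of the 57520 pairs of all genes (2.86%).

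Across the 60 sums of a class and a library, the log2 levels of the receptors were positively correlated, to different degrees. Pearson's r was 0.87 for Csf1r with Csf2ra, 0.77 for Csf2ra with Csf2rb, 0.73 for Csf1r with Tnfrsf11a, 0.67 for Csf1r with Csf2rb, 0.55 for Csf2ra with Tnfrsf11a and 0.38 for Csf2rb with Tnfrsf11a. Among the ligands, Csf2 and Tnfsf11 had an r of 0.50 and Csf1 with Csf2 -0.18. The sums share libraries and depth, and these values are descriptions.

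The genes with the most similar levels were Hdc (r = 0.84), Rab44 (0.83) and Acod1 (0.82) for Csf1, where Hdc makes histamine. For Csf2 they were Prelid2 (0.77), Zcchc10 (0.74) and St6galnac3 (0.73), and for Tnfsf11 the T cell ligands Tnfsf8 (0.90), Cd40lg (0.84) and Lta (0.76). For Csf1r they were Clec4a2 (0.96), Ifi207 (0.95) and Lyz2 (0.94), for Csf2ra Wfdc17 (0.94), Spi1 (0.93) and Tnfaip2 (0.92), and for Csf2rb Csf2rb2 (0.93), Plek (0.90) and Emilin2 (0.90). For Tnfrsf11a they were Cd40 (0.80), Nrg1 (0.79) and Tbc1d9 (0.79).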

How the data were processed

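Cells of periwound skin were captured with droplet 3′ chemistry, and the authors made the deposited matrices, which hold whole-number UMI counts per gene and cell, with Cell Ranger 6.1.2 and the mm10 genome. The counts were used as deposited, at 4779405 to 11243740 UMIs per library after filtering. The filters on cells were those of the study (200 to 3000 detected genes, mitochondrial share of UMIs up to 10%). Doublets had been removed by the authors according to their methods, although whether this was before deposit is not given in the sources used here, and Scrublet in scanpy 1.11.5 marked 35 of 6443 kept cells, which were kept. Cells were clustered (2000 variable genes, 30 components, Leiden resolution 1.0) without the members and the pathway genes, and classes were named from fixed marker lists. The members and lists were chosen with earlier results of these data known. Named genes are the 7 members, at most 4 genes per pathway list that passed the threshold, by size of fold, and the 3 genes most like each member, by Pearson's r of log2(CPM + 10) among genes with at least 200 UMIs. UMIs were summed per library and class and fitted with edgeR 4.0.16 (quasi-likelihood, TMM, Benjamini-Hochberg adjusted p of 0.05) in R 4.3.3, between groups in 12 classes and in all kept cells, and between 16 classes with the library as a block. The script was tested on simulated data. Alternatives were DESeq2 1.42.0, RLE size factors, no filter on low counts, a replicate block, no upper gene limit, other Leiden resolutions, no called doublets, thinning and leaving out each library. Promoter windows and start sites are RefSeq's, gene positions those of the mm10 annotation. No promoter is shown for Csf1r and Csf2rb.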

Additional observations from a re-analysis of the deposited data

Results flagged for a closer look

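Csf1 in the cells with over 3000 detected genes, which the comparisons leave out, was higher in both hucMSC-Exo libraries than in both Control libraries. It was 12.1 CPM in hucMSC-Exo 1 (20 UMIs in 75 cells) and 32.4 CPM in hucMSC-Exo 2 (36 UMIs in 69 cells), against 4.43 CPM in Control 1 (8 UMIs in 106 cells) and 4.54 CPM in Control 2 (25 UMIs in 279 cells). The other 6 members overlapped between the groups in these cells. Among the gene and class pairs of the kept cells, 12.3% were higher in both hucMSC-Exo libraries, and the share over all genes in these cells is not given. The classes that held these Csf1 UMIs are not given either, and the difference was not tested.

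The Csf2ra levels of the groups did not overlap in 2 classes, in opposite directions. Its level was lower in both hucMSC-Exo libraries than in both Control libraries in neutrophils and higher in both in monocytes. Of all gene and class pairs tested, 17% were lower in both and 12.3% higher in both. The log2 fold changes of -0.21 ± 0.37 and 0.29 ± 0.32 (SE) were 0.49 apart, and each lay within 1 SE of 0. In neutrophils the value ran from -0.32 to 0.036 when each library was left out. The difference between the classes was not tested, and neither change was called by edgeR.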

How the results depend on the processing

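The 2 genes called between groups over the 12 classes became 208 without a filter on low counts, 9 with DESeq2, 19 with a replicate block, 6 with no upper limit on detected genes, and 5 and 1 at Leiden resolutions 0.6 and 1.6, and 109 to 739 when each library was left out. Over all kept cells leaving out a library gave 0 to 2 calls. Member pairs called between groups stayed at 0 under these settings and were 0 or 1 when a library was left out, the 1 being Csf2 in IL-17 γδ T cells without Control 1. The labels tie the replicate numbers to no shared animal or day, although libraries with the same number share a file-name letter. The deviations of the samples numbered 1 correlated at 0.19 over all kept cells and at -0.24 to 0.21 in the classes, and the replicate block changed no call of a member. In the 3 classes with negative correlations (CD8 or NKT-like T cells, NK cells and ILC2) a crossed pairing, chosen after seeing the data, gave 9 calls.

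Higher calls between classes ran from 35 to 37 of 112 without 1 library, and lower calls from 1 to 7. Lower calls were 33 with DESeq2 and 1 without called doublets. In the lone-library fits the single library was assumed to vary like the other group.

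With no upper limit on detected genes the log2 fold change turned to -0.050 for Csf1r and -0.19 for Tnfrsf11a in osteoclast-like macrophages and to 0.044 for Csf2 in all kept cells. Over the fits that left out 1 library it ran from -1.14 to 1.68 for Csf1, -0.27 to 0.19 for Csf1r, -0.30 to 0.027 for Csf2, -0.12 to 0.46 for Csf2ra, -0.53 to 1.83 for Csf2rb and -0.54 to 0.66 for Tnfrsf11a in all kept cells. It ran from -0.28 to 1.17 for Csf1 in neutrophils, -0.19 to 0.21 for Csf1r in osteoclast-like macrophages, -1.63 to 0.59 for Csf2 in IL-17 γδ T cells, -0.32 to 0.036 for Csf2ra in neutrophils, -0.20 to 1.59 for Csf2rb in conventional dendritic cells, -0.40 to 0.85 for Tnfsf11 in CD4 T cells and -0.20 to 1.02 for Tnfrsf11a in osteoclast-like macrophages. These 13 of the 20 ranges cross 0, and the cause was not tested. The other 7 kept their sign, at 0.11 to 0.26 for Csf1r and -0.96 to -0.64 for Csf2rb in macrophages, -1.25 to -0.098 for Tnfrsf11a in macrophages, -1.18 to -0.52 for Csf2 in ILC2, -0.58 to -0.071 for Csf2 and 0.22 to 1.16 for Tnfsf11 in DETC, and 0.14 to 0.99 for Tnfsf11 in all kept cells.

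Mean shares fell when each cell was thinned to 1000 UMIs, from 86.8% to 38.6% for Csf1r in macrophages, 10.6% to 5.01% for Csf2 in ILC2, 39.8% to 22.7% for Csf2ra in neutrophils, 83.2% to 63.0% for Csf2rb in basophils, 27.2% to 10.5% for Tnfsf11 in CD4 T cells and 27.7% to 4.61% for Tnfrsf11a in osteoclast-like macrophages. Fewer UMIs per cell lower a share by construction. With no upper limit the last share was 39.8% and its level went from 51.9 to 81.5 CPM, and the macrophage share of Csf1r was 88.0%, and 88.3% at resolution 0.6. Single calls between classes turned for Csf1 in mast cells without Control 2 (a range of -5.24 to 4.86 over the fits without 1 library) and for Csf2 in CD8 or NKT-like T cells at resolution 1.6 (-4.00). Besides the calls named above, those of Csf3, Il3ra, Socs2 and Itgb3 were lost under at least 1 setting. The 510 UMIs of Csf2 and 557 of Tnfsf11 in all kept cells limit the precision of their levels per class.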
